A study of Homo sapiens with 8 samples.

Results

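The mitosis and G2/M genes are 38 genes whose products carry a cell from G2 through mitosis to cytokinesis, and their mRNA was compared in 2 lines of cervical cancer cells, BOKU and SKG-I, after IGF2R knockdown. The genes were chosen by name as a list, and each was read from the probe set that the platform annotation gives to that gene alone, with the highest mean signal representing the gene. Of the 38 genes, 33 reached a signal of 500 on at least 1 of 8 arrays, among 8961 genes that did so in all. The 4 groups were BOKU with siIGF2R, BOKU with siCtrl, SKG-I with siIGF2R and SKG-I with siCtrl, where siIGF2R is an siRNA against IGF2R, the cation-independent mannose 6-phosphate receptor, and siCtrl is a control siRNA. Both were introduced by lipofection in serum-containing medium, and total RNA was taken 72 h later. Each group was 1 RNA sample, and that RNA was run on 2 GeneChip U133 Plus 2.0 arrays, so the spread between arrays is technical. The effect of the siRNA therefore cannot be told apart from a difference between the cultures that received it, nor the difference between the lines from that between 1 culture of each. The sources used here do not say which siRNA against IGF2R these cultures received.

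Genes of this kind are transcribed late in the cell cycle and their mRNA is scarce in quiescent cells. In quiescent cells and early in the cycle the DREAM complex represses them, and from S phase to mitosis the same MuvB core works with B-MYB and then FOXM1 to activate them. Both complexes act through a promoter element called CHR, with the letters TTTGAA, and many such promoters also hold CCAAT boxes, which bind NF-Y. Because these genes follow the cycle, their level in a culture depends on the share of cells in G2 and mitosis, and in bulk RNA more cells in these phases cannot be told apart from more mRNA per cell.

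RefSeq promoters of GRCh38.p14, 250 bases before to 50 after the start of the gene, were at hand for 30 of the 38 genes. Where several were listed for a gene, such as 4 each for CDC25B and CDC25C, the first listed alone was read. A gene counted without a motif may therefore hold it in another listed promoter. The letters TTTGAA, read on both strands, stood in 19 of these 30 promoters (63.3%), against 15.43% of the first listed promoters of 27305 genes. CCAAT, also on both strands, stood in 24 of 30 (80.0%), against 35.7% of all, and both motifs in 17 of 30 (56.7%), against 6.08%. Matches can share letters, as a pair of CCAAT boxes of HMMR does, and a match describes these letters, not a bound site. TTTGAA stood in 12 of the 18 promoters of genes at least 2-fold higher with siIGF2R in BOKU, counted without the filter on signal, and in 7 of the other 12, and CCAAT in 14 of 18 and 10 of 12. In the 250 bases before the start alone, TTTGAA stood in 16 of the 30, in 12 of the 18 and in 4 of the other 12. It stood there in 13.57% of the first listed promoters of the 27305 genes, and the CCAAT counts of the 30 were unchanged. The difference between the groups was not tested.

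The promoters of 4 genes are shown to set genes that were higher in BOKU beside one that was lower in both lines. PRC1 and HMMR had the largest differences in BOKU, CCNB2 encodes a cyclin of mitosis, and all 3 were at least 2-fold higher with siIGF2R than with siCtrl in BOKU, and CKS2 was lower with siIGF2R in both lines. Capitals mark TTTGAA and CCAAT, or TTCAAA and ATTGG where the motif lies on the other strand. The PRC1 promoter is chr15:90994486-90994785 on the minus strand, that of HMMR chr5:163460382-163460681 on the plus strand, that of CCNB2 chr15:59104896-59105195 on the plus strand and that of CKS2 chr9:89310945-89311244 on the plus strand.
PRC1: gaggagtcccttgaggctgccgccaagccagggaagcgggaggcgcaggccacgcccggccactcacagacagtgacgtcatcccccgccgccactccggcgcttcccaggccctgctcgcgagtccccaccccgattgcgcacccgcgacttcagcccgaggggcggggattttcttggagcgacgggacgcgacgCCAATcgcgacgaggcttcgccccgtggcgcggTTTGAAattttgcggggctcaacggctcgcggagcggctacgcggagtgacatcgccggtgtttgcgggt
HMMR: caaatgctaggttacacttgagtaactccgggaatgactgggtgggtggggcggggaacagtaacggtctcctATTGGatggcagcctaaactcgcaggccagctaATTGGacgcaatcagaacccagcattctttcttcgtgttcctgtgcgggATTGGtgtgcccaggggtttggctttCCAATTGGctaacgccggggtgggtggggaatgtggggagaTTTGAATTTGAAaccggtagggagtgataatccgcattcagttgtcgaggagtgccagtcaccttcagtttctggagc
CCNB2: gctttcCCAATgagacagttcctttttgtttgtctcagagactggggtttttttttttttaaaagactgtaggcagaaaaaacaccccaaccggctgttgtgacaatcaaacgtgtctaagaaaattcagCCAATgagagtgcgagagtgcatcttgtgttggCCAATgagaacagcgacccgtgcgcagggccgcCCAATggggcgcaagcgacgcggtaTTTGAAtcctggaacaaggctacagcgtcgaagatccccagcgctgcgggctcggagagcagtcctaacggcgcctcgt
CKS2: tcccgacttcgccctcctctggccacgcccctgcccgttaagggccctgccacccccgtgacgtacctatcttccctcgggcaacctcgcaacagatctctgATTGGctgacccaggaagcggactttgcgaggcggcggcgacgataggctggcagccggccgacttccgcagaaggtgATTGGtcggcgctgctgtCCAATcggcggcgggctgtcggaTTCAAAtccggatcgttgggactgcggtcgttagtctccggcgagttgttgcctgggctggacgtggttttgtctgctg
In each of the 4 a TTTGAA element lay close before the start, with its first base 20 bases before it in PRC1, 22 in HMMR, 29 in CCNB2 and 29 in CKS2, and at least 1 CCAAT box lay upstream of it. The CKS2 element was on the opposite strand. These 4 promoters were picked by their genes' differences, and whether the letters go with the direction of a difference was not tested.

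The knockdown itself was seen in both lines. The IGF2R signal was 641 and 645 with siIGF2R, against 7288 and 6710.5 with siCtrl, in BOKU (10.9-fold lower), and 257 and 295 with siIGF2R, against 4120 and 3838 with siCtrl, in SKG-I (14.5-fold lower). The epithelial keratins KRT8, KRT18 and KRT19 were above 500 on every array, as were COL1A1 transcripts, while the highest signal of PTPRC, CD3E or CD14, markers of leukocytes, was 77.9. In all, 5 of 7 epithelial, 2 of 5 mesenchymal, 0 of 3 leukocyte and 0 of 3 endothelial markers on the array reached 500. Of the epithelial markers, KRT5 and KRT14 stayed below 500 in both lines, while EPCAM reached it in SKG-I alone, and CDH1 in SKG-I with siIGF2R alone.

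In BOKU, most mitosis and G2/M genes were higher with siIGF2R than with siCtrl. Of the 33 genes measured, 18 were at least 2-fold higher and 0 at least 2-fold lower, when 8.02% of all genes were at least 2-fold higher and 5.06% at least 2-fold lower. The median difference of the 33 was 1.10 on the log2 scale, which is 2.14-fold, against 0.03 for all genes. The siIGF2R arrays lay wholly above the siCtrl arrays for 29 of 33 genes, as they did for 40.4% of all genes. Taken without the filter, 22 of all 38 genes were at least 2-fold higher and 0 were lower by that much, when 12.2% of all genes were higher and 10.9% lower, and the median was 1.23.

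In SKG-I, the differences were small, and more of them were negative than positive. Of the 33, 0 were at least 2-fold higher and 1, NUSAP1, was at least 2-fold lower, when 8.28% of all genes were higher and 6.42% lower by that much. The median difference was −0.17, against −0.03 for all genes, and 26 of the 33 lay within 0.5 of no difference on the log2 scale. The share of all genes within 0.5 was not counted. The siIGF2R arrays lay wholly below the siCtrl arrays for 19 genes, when 43.6% of all genes did so, and wholly above for 6, when 39.6% of all genes did so, while the arrays overlapped for 8. Among the 18 genes at least 2-fold higher in BOKU, the SKG-I difference ran between −0.76 for HMMR and 0.96 for PRC1.

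**Figure D1:**
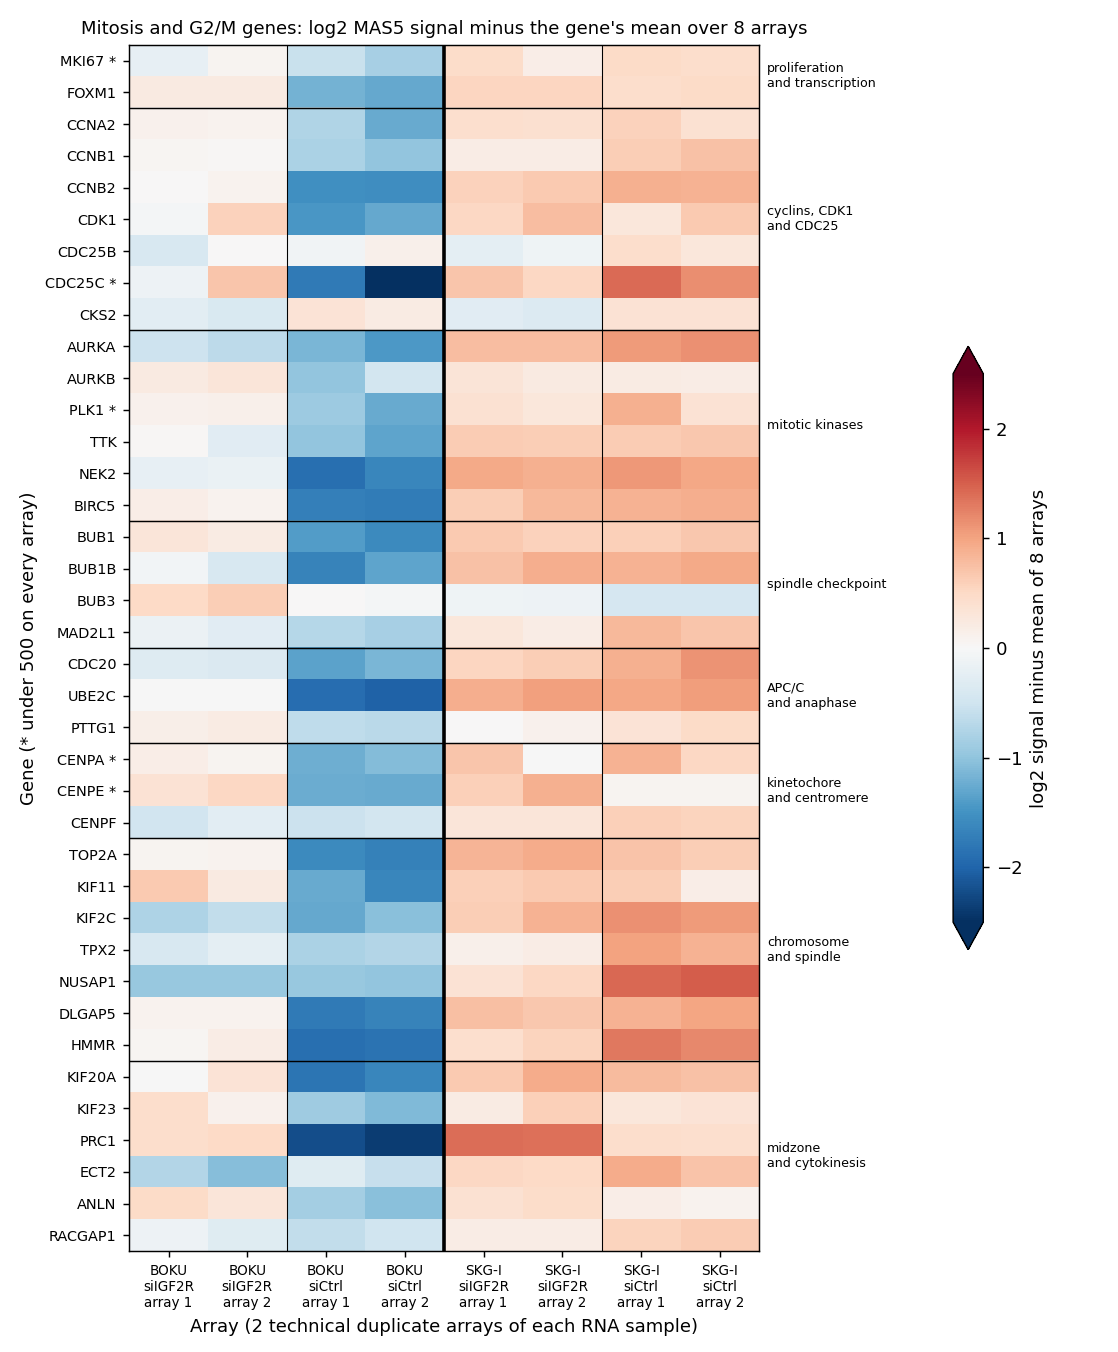
Each row is 1 of the 38 genes, grouped by role, and each column 1 of 8 arrays, with siIGF2R left of siCtrl in each cell line; color gives log2 signal minus the gene's mean over the 8 arrays. Most genes are lowest (blue) on the 2 BOKU siCtrl arrays, and CKS2, CDC25B, CENPF, ECT2 and BUB3 do not follow this.

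The fit over both lines, with the cell line as a block, called 0 of the 33 genes higher and 0 lower at an adjusted p under 0.05 (limma, Benjamini-Hochberg over all probe sets that passed), when it called 2.63% of all genes higher and 2.37% lower. At an unadjusted p under 0.05 it found 5 genes higher and 1 lower, when 14.4% of all genes were higher and 14.0% lower at that limit, so the share that was higher was near that of all genes. The smallest adjusted p values were 0.0652 for CKS2 and 0.0673 for PRC1. With the lines as the 2 replicates the test asks for the same change in both, and 32 of the 33 genes had a lower value of siIGF2R minus siCtrl in SKG-I than in BOKU. That count was not made over all genes. The difference between the lines' responses was not tested, since 1 RNA sample per line and siRNA leaves no degree of freedom for it.

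**Figure D2:**
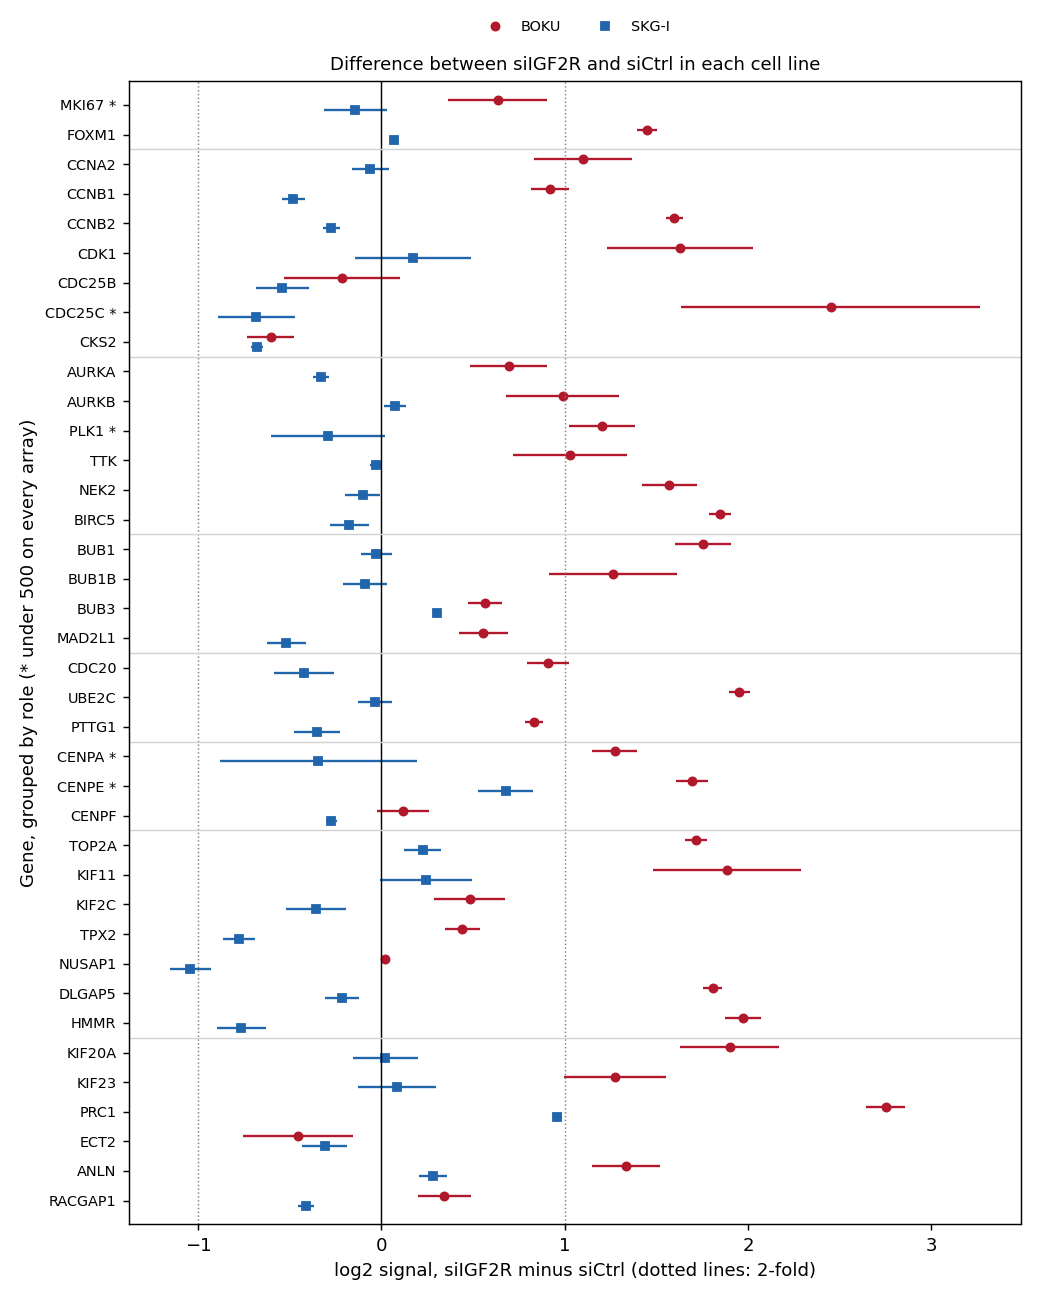
Points give log2 signal with siIGF2R minus siCtrl for each gene, circles for BOKU and squares for SKG-I, and the bars run between the smallest and the largest difference that the duplicate arrays give. The BOKU points lie at or above 1 for 18 of the 33 genes measured. Most SKG-I points lie around or below 0, with PRC1 the highest at 0.96, followed by CENPE, which stayed below 500, at 0.68.

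The factor that drives the program late in the cycle, FOXM1, had signals of 594 and 599.9 with siIGF2R, against 226 and 211 with siCtrl, in BOKU. In SKG-I it had 741 and 739 with siIGF2R, against 696 and 715 with siCtrl. FOXM1 was thus 2.73-fold higher in BOKU and differed by 0.07 on the log2 scale in SKG-I. MKI67, which encodes the proliferation antigen Ki-67 that coats mitotic chromosomes, never reached 500. Its signals were 210.1 and 253 with siIGF2R, against 163 and 135 with siCtrl, in BOKU, and 333 and 271 with siIGF2R, against 337 and 326 with siCtrl, in SKG-I. The arrays of this probe set were apart in BOKU and overlapped in SKG-I. MKI67 had 4 probe sets, all below 500, and the siIGF2R arrays of all 4 were above siCtrl in BOKU, by 0.63 to 3.04 on the log2 scale, whereas in SKG-I they were above for 2, below for 1 and overlapping for 1.

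Of the cyclins and their kinase, CDK1, the catalytic subunit that starts mitosis, had 1399.6 and 2138 with siIGF2R, against 524 and 597 with siCtrl, in BOKU. In SKG-I CDK1 had 2052 and 2449 with siIGF2R, against 1745 and 2262 with siCtrl, and the arrays overlapped. The CDK1 duplicates of siIGF2R in BOKU were unequal, yet both stood above the siCtrl arrays. Another CDK1 probe set above 500 had SKG-I arrays apart and lower with siIGF2R (−0.09), and those of a further one overlapped in SKG-I (0.002). CCNB1, which encodes cyclin B1, the partner of CDK1, had 2035 and 2013 with siIGF2R, against 1142 and 1002 with siCtrl, in BOKU, and 2251 and 2255 with siIGF2R, against 3012 and 3280.3 with siCtrl, in SKG-I. CCNB2, for cyclin B2, had 1562 and 1643 with siIGF2R, against 533 and 526 with siCtrl, in BOKU, and 2286 and 2414 with siIGF2R, against 2854 and 2823 with siCtrl, in SKG-I. Both cyclins were higher with siIGF2R in BOKU and lower in SKG-I, with no overlap of arrays in either line. CCNA2, for cyclin A2, differed by 1.10 in BOKU and by −0.06 in SKG-I. Another CCNA2 probe set above 500 had arrays apart, higher with siIGF2R in BOKU (1.44) and lower in SKG-I (−0.06).

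CKS2 and CDC25B had negative differences in BOKU. CKS2, a small subunit that binds CDK1, had 5942 and 5509 with siIGF2R, against 9137 and 8279 with siCtrl, in BOKU, and 5882 and 5649 with siIGF2R, against 9214 and 9231 with siCtrl, in SKG-I. It was 1.52-fold lower in BOKU and 1.60-fold lower in SKG-I, with a log2 fold change over both lines of −0.64 (SE 0.14, adjusted p = 0.0652 by limma), and all siIGF2R arrays lay below all siCtrl arrays. CDC25B, a phosphatase that activates CDK1, had 842 and 1122 with siIGF2R, against 1044 and 1219 with siCtrl, in BOKU, where the arrays overlapped. In SKG-I CDC25B had 938 and 1039 with siIGF2R, against 1506 and 1367 with siCtrl, a difference of −0.54. Its relative CDC25C stayed below 500 on all arrays, at 137 and 243 with siIGF2R, against 43.9 and 25.3 with siCtrl, in BOKU.

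The mitotic kinases AURKA, AURKB, TTK and NEK2 and the aurora B partner BIRC5, also called survivin, were all higher with siIGF2R in BOKU, by 0.69 to 1.85 on the log2 scale. NEK2, which separates centrosomes, had 580.4 and 597 with siIGF2R, against 181 and 217 with siCtrl, in BOKU, and 1296 and 1249.6 with siIGF2R, against 1431 and 1303 with siCtrl, in SKG-I. BIRC5 had 1116 and 1058 with siIGF2R, against 307 and 297 with siCtrl, in BOKU, and 1536 and 1739 with siIGF2R, against 1825 and 1864 with siCtrl, in SKG-I. For both the BOKU arrays were far apart, and those of SKG-I were close but did not overlap. AURKA, which matures the centrosomes, had 1218 and 1108 with siIGF2R, against 791 and 651 with siCtrl, in BOKU, and 3006 and 3003 with siIGF2R, against 3659 and 3889 with siCtrl, in SKG-I. TTK, a checkpoint kinase, had 487 and 395 with siIGF2R, against 239.9 and 192 with siCtrl, in BOKU, and 737 and 732 with siIGF2R, against 737 and 764 with siCtrl, in SKG-I. The SKG-I difference of TTK was −0.03, so its arrays nearly touched there. AURKB differed by 0.99 in BOKU and 0.08 in SKG-I. PLK1, below 500 throughout, differed by 1.20 in BOKU, and its arrays overlapped in SKG-I.

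Of the spindle checkpoint genes, which hold back anaphase until chromosomes are attached, BUB1 and BUB1B were higher with siIGF2R in BOKU by 1.76 and 1.26 and overlapped in SKG-I. BUB3, whose product carries BUB1 and BUB1B to kinetochores, had 9284 and 10065 with siIGF2R, against 6687 and 6372 with siCtrl, in BOKU, and 6119.5 and 6061 with siIGF2R, against 4914 and 4957 with siCtrl, in SKG-I. BUB3 was higher with siIGF2R in both lines, by 0.57 and 0.30, with a log2 fold change of 0.43 over both (SE 0.15, adjusted p = 0.147 by limma). MAD2L1, which inhibits CDC20, had 1097 and 986 with siIGF2R, against 736 and 679 with siCtrl, in BOKU, and 1470.2 and 1375 with siIGF2R, against 2118 and 1955 with siCtrl, in SKG-I. MAD2L1 was thus 0.56 higher in BOKU and 0.52 lower in SKG-I on the log2 scale.

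The 3 genes for partners and a substrate of the anaphase-promoting complex, which ends mitosis by degrading proteins, were all higher with siIGF2R in BOKU. UBE2C, the ubiquitin-conjugating enzyme of that complex, had 1690.1 and 1669 with siIGF2R, against 449 and 419 with siCtrl, in BOKU (3.87-fold higher), and 3180.2 and 3437 with siIGF2R, against 3302 and 3477 with siCtrl, in SKG-I. CDC20, its activator in mitosis, had 800.4 and 776 with siIGF2R, against 393 and 448 with siCtrl, in BOKU, and 1445 and 1531 with siIGF2R, against 1832 and 2170.1 with siCtrl, in SKG-I. PTTG1, which encodes securin, the inhibitor of separase, had 5211 and 5462 with siIGF2R, against 3027 and 2962 with siCtrl, in BOKU, and 4739 and 5098 with siIGF2R, against 5959 and 6591 with siCtrl, in SKG-I. CDC20 and PTTG1 were higher in BOKU and lower in SKG-I with no overlap, whereas the UBE2C arrays overlapped in SKG-I.

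Of the kinetochore genes, CENPF alone passed the filter, with a difference of 0.12 and overlapping arrays in BOKU. CENPA, the histone of centromeres, and CENPE, a kinetochore motor, stayed below 500 and differed by 1.27 and 1.69 in BOKU. In SKG-I the CENPA arrays overlapped, while CENPE had 324 and 397 with siIGF2R, against 224 and 224 with siCtrl, a difference of 0.68. A probe set shared by CENPA and SLC35F6 had 627 and 656 with siIGF2R, against 165 and 142 with siCtrl, in BOKU, and cannot be given to either gene.

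Among the genes of chromosome and spindle structure, HMMR, which encodes a spindle-associated protein that also binds hyaluronan, had 638 and 709 with siIGF2R, against 169 and 174 with siCtrl, in BOKU, and 828 and 916 with siIGF2R, against 1541 and 1419.9 with siCtrl, in SKG-I. HMMR was 3.93-fold higher in BOKU and −0.76 on the log2 scale in SKG-I, the widest gap between the lines' responses among the 33 genes. DLGAP5, which stabilizes kinetochore fibers, had 1067 and 1063 with siIGF2R, against 294 and 315 with siCtrl, in BOKU, and 1694 and 1612 with siIGF2R, against 1844 and 1993 with siCtrl, in SKG-I. NUSAP1 and TPX2, both of which promote microtubule assembly around chromosomes, had the lowest values of siIGF2R minus siCtrl in SKG-I. NUSAP1 had 674 and 677 with siIGF2R, against 673 and 659.8 with siCtrl, in BOKU, and 1673 and 1862 with siIGF2R, against 3545 and 3724 with siCtrl, in SKG-I. TPX2 had 708 and 781 with siIGF2R, against 538 and 557 with siCtrl, in BOKU, and 1022 and 1053 with siIGF2R, against 1856 and 1699 with siCtrl, in SKG-I. NUSAP1 was 2.06-fold lower in SKG-I, a difference of −1.04 that was −0.96 without SKG-I siIGF2R replicate 1, and differed by 0.02 in BOKU, where the arrays nearly touched and the sign turned with quantile normalization (−0.07) and median scaling (−0.02). KIF2C, a kinesin that takes microtubules apart, had 486 and 539.9 with siIGF2R, against 338 and 398 with siCtrl, in BOKU, and 1267 and 1511 with siIGF2R, against 1815 and 1729 with siCtrl, in SKG-I. TOP2A, the topoisomerase that untangles sister chromatids, and KIF11, the motor that separates spindle poles, were higher in BOKU by 1.72 and 1.89.

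In the midzone and cytokinesis group, PRC1, which bundles microtubules between the separating chromosomes, had 1519 and 1578 with siIGF2R, against 243 and 218 with siCtrl, in BOKU, and 2969 and 2918 with siIGF2R, against 1531 and 1502 with siCtrl, in SKG-I. PRC1 was 6.73-fold higher in BOKU, the largest difference of the 33 genes, and 1.94-fold higher in SKG-I. Its log2 fold change over both lines was 1.85 (SE 0.42, adjusted p = 0.0673 by limma). The adjusted p was 0.0213 without BOKU siCtrl replicate 1 and 0.0291 without BOKU siIGF2R replicate 2. Those fits called 499 and 469 of all genes higher, against 236 with all arrays. ANLN, for the contractile ring protein anillin, had 3522 and 3095 with siIGF2R, against 1396 and 1227 with siCtrl, in BOKU, and 3273 and 3456 with siIGF2R, against 2841 and 2692 with siCtrl, in SKG-I. PRC1 and ANLN were thus higher in both lines, with arrays apart in each. KIF20A and KIF23, kinesins of the midzone, were higher in BOKU by 1.90 and 1.28, and their arrays overlapped in SKG-I. ECT2, the exchange factor that switches on RhoA at the cleavage site, had 2401 and 1904 with siIGF2R, against 3214 and 2672 with siCtrl, in BOKU, and 5721 and 5621 with siIGF2R, against 7589 and 6505 with siCtrl, in SKG-I. RACGAP1, which forms the centralspindlin complex with KIF23 and recruits ECT2, had 1720.0 and 1517 with siIGF2R, against 1225 and 1323 with siCtrl, in BOKU, and 2140.1 and 2127 with siIGF2R, against 2762 and 2912 with siCtrl, in SKG-I. ECT2 was lower with siIGF2R in both lines with no overlap of arrays, and RACGAP1 was higher in BOKU and lower in SKG-I. Another ECT2 probe set above 500 differed by −0.13 in BOKU and −0.10 in SKG-I, and its arrays overlapped in both lines.

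In all, 15 of the 33 genes had siIGF2R arrays wholly above siCtrl in BOKU and wholly below in SKG-I, when 7.78% of all genes did so. These were CCNB1, CCNB2, AURKA, TTK, NEK2, BIRC5, MAD2L1, CDC20, PTTG1, KIF2C, TPX2, NUSAP1, DLGAP5, HMMR and RACGAP1. Of 9 other probe sets above 500, for 8 of these genes, 4 had arrays apart in the same opposite directions, those of CCNB1, HMMR, KIF2C and MAD2L1. Another BIRC5 probe set had SKG-I arrays apart and higher with siIGF2R (0.11), further ones of BIRC5, NEK2 and AURKA overlapped in SKG-I, and that of NUSAP1 overlapped in BOKU. CDK1 and CCNA2, which are not among the 15, each had another probe set with arrays apart in these opposite directions.

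The starting level of these genes differed between the lines. With siCtrl, 29 of the 33 genes were at least 2-fold lower in BOKU than in SKG-I and 0 at least 2-fold higher, when 19.0% of all genes were lower and 15.7% higher by that much. The median difference was −1.83, which is 3.55-fold lower in BOKU, against −0.08 for all genes. HMMR (−3.11), UBE2C (−2.97) and NEK2 (−2.79) were the lowest in BOKU against SKG-I, and BUB3 (0.40), CKS2 (−0.08) and CDC25B (−0.35) the highest. BUB3 was the only member of the 33 above 0. Without the filter, 34 of all 38 genes were at least 2-fold lower in BOKU with siCtrl, when 19.7% of all genes were.

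With siIGF2R the lines lay closer together. The number of genes at least 2-fold lower in BOKU was 6 of 33, when 14.7% of all genes were, and the median difference was −0.48, which is 1.40-fold lower in BOKU, against −0.03 for all genes. The difference between the lines was smaller with siIGF2R than with siCtrl for 31 of the 33 genes and for 36 of all 38. The exceptions were BUB3, at 0.67 with siIGF2R and 0.40 with siCtrl, and ECT2, at −1.41 with siIGF2R and −1.26 with siCtrl. The share of all genes with a smaller difference with siIGF2R was not counted. The BOKU siCtrl RNA sample enters the BOKU response and the comparison of the lines with siCtrl alike, so these results are not independent of each other.

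**Figure D3:**
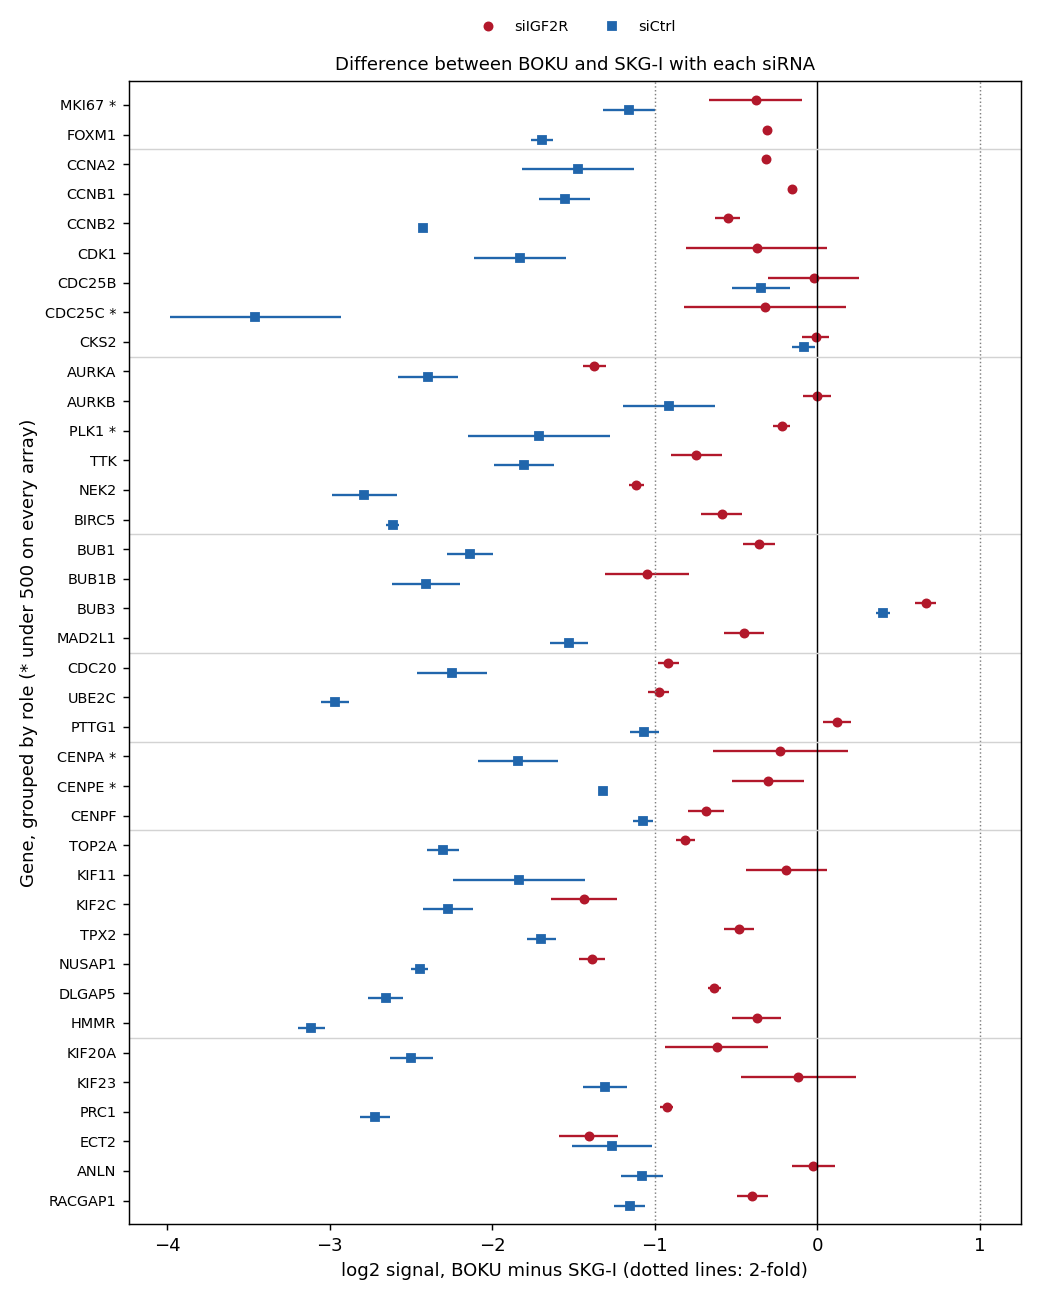
Points give log2 signal in BOKU minus SKG-I for each gene, circles with siIGF2R and squares with siCtrl, and the bars run between the smallest and the largest difference that the duplicate arrays give. With siCtrl 29 of the 33 genes measured lie at or below −1, and with siIGF2R 6 do.

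The 33 genes passed the filter of 500 through different groups. Each of the 33 genes reached 500 on at least 1 SKG-I array, and 15 did so with siCtrl in BOKU, while 16 reached it in BOKU with siIGF2R alone. TTK and KIF20A passed through SKG-I arrays only, and KIF11 through siIGF2R arrays only. KIF11 was the nearest above the limit, with a highest signal of 508, and CENPA the nearest below it, with 499. Of the 18 other probe sets above 500 for 14 of the genes, 18 had the sign of the representing probe set in BOKU and 15 in SKG-I, and all 9 that belong to a gene at least 2-fold higher in BOKU were at least 2-fold higher as well.

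Other lists of cell cycle genes were counted in the same way. In BOKU 8.02% of all genes were at least 2-fold higher and 5.06% lower, and in SKG-I 8.28% and 6.42%. Over both lines limma called 2.63% of all genes higher and 2.37% lower. Of 80 other mitotic genes listed, 59 were measured, and of these 16 were at least 2-fold higher with siIGF2R in BOKU and 1 lower, with a median of 0.54, and in SKG-I 0 were higher and 1 lower, with a median of −0.13. Their largest differences over both lines were those of FAM83D (2.09 in BOKU and 0.73 in SKG-I), KIF18B (1.83 and 0.47) and OIP5 (1.73 and 0.43), and limma called 0 of the 59. Without BOKU siCtrl replicate 1 or BOKU siIGF2R replicate 2 it called FAM83D (adjusted p = 0.0351 and 0.0436), when it called 499 and 469 of all genes higher. Of 46 replication and S phase genes listed, 36 were measured, and of these 1 was at least 2-fold higher in BOKU and 2 lower, with a median of −0.08, and in SKG-I 0 were higher and 3 lower, with a median of −0.27. UHRF1, which maintains DNA methylation (−2.42 in BOKU and −0.92 in SKG-I), MCM5, a subunit of the replicative helicase (−0.89 and −1.42), and CDC6, which loads it (−0.79 and −1.07), were lower with siIGF2R in both lines, and limma called 0 of the 36. Without BOKU siCtrl replicate 1 or BOKU siIGF2R replicate 2 it called UHRF1 (adjusted p = 0.0210 and 0.0271) and MCM5 (0.0406 and 0.0436). Without SKG-I siIGF2R replicate 2 it called UHRF1 (0.0472). Those fits called, in that order, 456, 398 and 253 of all genes lower. The counts past 2-fold lower in this list, 2 of 36 in BOKU and 3 of 36 in SKG-I, are set against the 5.06% and 6.42% of all genes. The mitotic and the replication genes thus had medians of different size in BOKU, and the difference between the lists was not tested.

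Of 23 regulators of the program listed, such as E2F, RB and MuvB factors, 17 were measured. Of these, limma called 1 higher and 1 lower, when it called 2.63% of all genes higher and 2.37% lower. CDKN3, a phosphatase that acts on cyclin-dependent kinases and peaks with mitotic genes, differed by 3.34 in BOKU and 1.43 in SKG-I (log2 fold change 2.39, SE 0.45, adjusted p = 0.0489 by limma). This call was lost without BOKU siCtrl replicate 2 (adjusted p = 0.0575), BOKU siIGF2R replicate 1 (0.0544) or SKG-I siCtrl replicate 1 (0.0527). TFDP1, the dimer partner of E2F factors, differed by −1.49 in BOKU and −1.18 in SKG-I (log2 fold change −1.34, SE 0.18, adjusted p = 0.0280). E2F5, a repressive E2F factor, was higher by 2.54 in BOKU and 1.29 in SKG-I, with an adjusted p of 0.0620 by limma. It was called without BOKU siCtrl replicate 1 (0.0280), BOKU siIGF2R replicate 2 (0.0327) or SKG-I siCtrl replicate 1 (0.0475). Those fits called, in that order, 499, 469 and 221 of all genes higher, against 236 with all arrays. MYBL2, which encodes B-MYB, had 197 and 316 with siIGF2R, against 97.4 and 94.7 with siCtrl, in BOKU, and 558 and 549.7 with siIGF2R, against 369 and 446 with siCtrl, in SKG-I. It was named with the regulators for its role beside FOXM1, after its values were seen, and was higher with siIGF2R in both lines with no overlap of arrays.

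Of 21 arrest and p53 target genes listed, 17 were measured. Of these, 1 was at least 2-fold higher in BOKU and 0 lower, when 8.02% and 5.06% of all genes were. In SKG-I 2 were higher and 1 lower, when 8.28% and 6.42% of all genes were. SESN1, a stress-induced p53 target, was the 1 gene of the list that limma called higher, when it called 2.63% of all genes higher. SESN1 differed by 1.04 in BOKU and 1.26 in SKG-I (log2 fold change 1.15, SE 0.18, adjusted p = 0.0377 by limma). CCNG2, for cyclin G2, differed by −0.69 in BOKU and −1.34 in SKG-I, and AEN, a p53-induced nuclease, by 0.51 and 1.08. CCNG2 was called by limma without BOKU siCtrl replicate 1 (adjusted p = 0.0426) or BOKU siIGF2R replicate 2 (0.0369). Those fits called 456 and 398 of all genes lower, against 212 with all arrays. With siCtrl this list was higher in BOKU than in SKG-I by a median of 0.998, against −0.08 for all genes. Of its 17 genes 8 were at least 2-fold higher and 1 at least 2-fold lower, when 15.7% and 19.0% of all genes were. The 2 genes of the list below 0 were CDKN1A (−1.43) and SFN (−0.69). The mitosis and G2/M genes were lower in BOKU with siCtrl, and the difference between the lists was not tested. CDKN1A, for the inhibitor p21, had 5975 and 7364 with siIGF2R, against 5186 and 6389 with siCtrl, in BOKU, and 10194 and 9900.0 with siIGF2R, against 15057 and 15892 with siCtrl, in SKG-I. The CDKN1A arrays overlapped in BOKU and were lower with siIGF2R in SKG-I. It was also chosen after its values were seen.

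**Figure D4:**
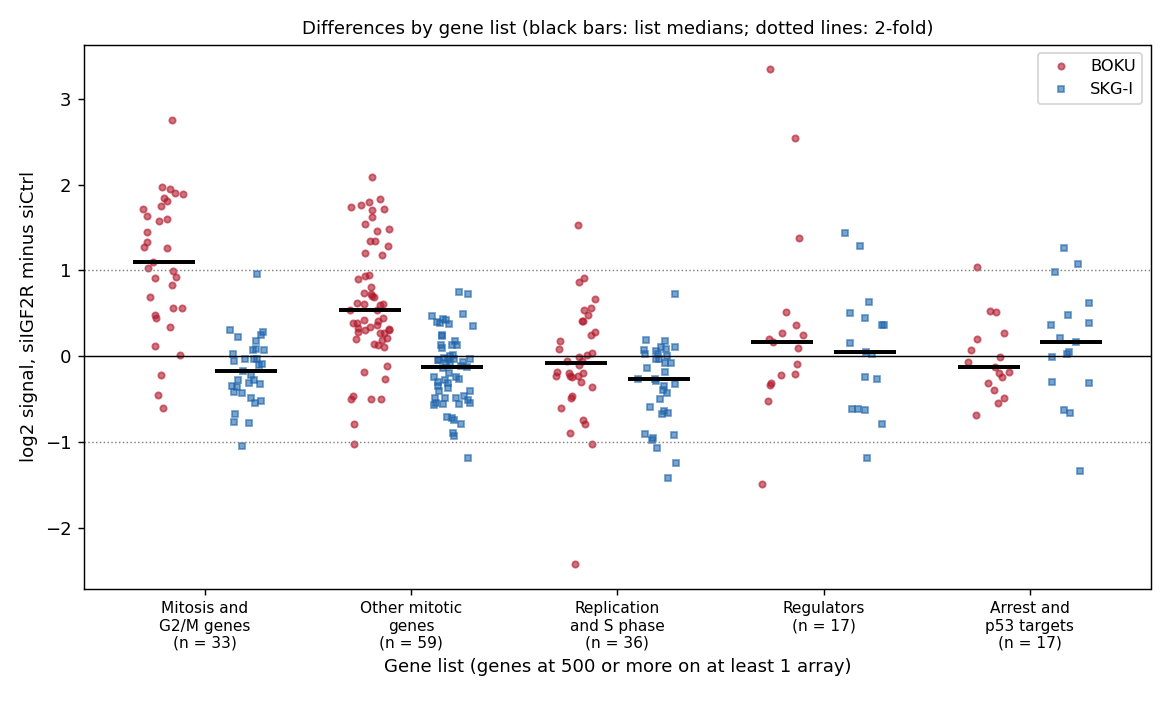
Each point is 1 gene, with log2 signal of siIGF2R minus siCtrl, by gene list, as circles for BOKU and squares for SKG-I, and black bars are list medians. The BOKU median of the mitosis and G2/M genes is 1.10, above that of each other list shown, and the SKG-I medians lie between −0.27 and 0.16.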

How the data were processed

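Total RNA of 4 cultures was measured on GeneChip U133 Plus 2.0 arrays, 2 technical duplicate arrays each. The authors deposited an intensity for each probe set of each array, made by MAS5 and linear, already scaled to a common trimmed mean (496.6 to 497.3). The table held 54675 probe sets, of which 62 controls were left out. Signals were put on a log2 scale and duplicates averaged, and 16517 probe sets that reached 500 on any of the 8 arrays were retained, of which 14544 had 1 gene in the annotation, 765 several and 1208 none. The log2 difference of duplicates had an SD of 0.27 to 0.35. limma 3.58.1 (R 4.3.3) fitted the siRNA with the cell line as a block and a variance trend, which leaves 1 residual degree of freedom beside 4.82 prior ones, and was tested on simulated data. Within a line, and between lines, 1 RNA sample per group allows no test, and differences of 2-fold or more were counted. The number of arrays limits the precision.

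The 38 genes, the other lists and the rules for naming genes were chosen with earlier results of these data known. Signals on every array are given for the 3 largest differences in each direction and line, the 3 highest and 3 lowest genes in BOKU against SKG-I with siCtrl, genes with arrays apart in opposite directions in the lines, and MKI67, CCNB1, CDK1 and FOXM1. From other lists, up to 3 genes with the largest mean difference are named. Gene names come from the platform annotation and promoters from RefSeq. Alternatives covered the filter, normalization, floor, added constant, variance model, block, probe set choice, fold threshold, the methods' t-test and leaving out each array.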

Additional observations from a re-analysis of the deposited data

Results flagged for a closer look

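For 15 genes the siIGF2R arrays lay above the siCtrl arrays in BOKU and below them in SKG-I. The difference between the lines was not tested, since each line and siRNA gave 1 RNA sample. The SKG-I difference minus the BOKU difference, on the log2 scale, was −2.74 for HMMR, −2.02 for BIRC5, −2.02 for DLGAP5, −1.87 for CCNB2 and −1.67 for NEK2. It was −1.40 for CCNB1, −1.33 for CDC20, −1.22 for TPX2, −1.18 for PTTG1 and −1.07 for MAD2L1. It was −1.06 for TTK, −1.06 for NUSAP1, −1.02 for AURKA, −0.84 for KIF2C and −0.75 for RACGAP1. NUSAP1 and TTK qualified through 1 line alone in size, with differences of 0.02 in BOKU for NUSAP1, which turned negative with quantile normalization (−0.07) and median scaling (−0.02), and −0.03 in SKG-I for TTK. By contrast, the representing probe sets of FOXM1, AURKB, BUB3, TOP2A, PRC1 and ANLN had arrays apart and higher with siIGF2R in both lines. Those of CKS2 and ECT2 had arrays apart and lower in both.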

How the results depend on the processing

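The count of genes at least 2-fold higher in BOKU was 18 and stayed within 1.5 times of this in the 18 alternatives run for it, as did the count of genes at least 2-fold lower in BOKU than in SKG-I with siCtrl in the 8 run for that comparison. The median of the genes was between 0.98 and 1.53 in BOKU and between −0.23 and −0.05 in SKG-I over 17 alternatives each, and none of these medians changed sign. With a 1.5-fold threshold 1 gene was lower in BOKU, and 1 was higher and 4 were lower in SKG-I. The count of genes with arrays apart in opposite directions was 9 with probe sets without s or x suffix, which left 20 genes. With limma, 1 of the genes (PRC1, adjusted p = 0.0337) was called higher with an added constant of 64. That setting called 404 of all genes higher and 347 lower, against 236 and 212 in the main fit. It also called FAM83D (0.0455), UHRF1 (0.0332), MCM5 (0.0323), E2F5 (0.0426) and CCNG2 (0.0458). MCM5 was called too after subtraction of signal class medians (0.0482), when 236 of all genes were called lower. E2F5 was called without the filter (0.0434), when 304 of all genes were called higher. The calls of CDKN3, TFDP1 and SESN1 were lost without the variance trend (adjusted p = 0.132, 0.103 and 0.113) and without the cell line block (0.9999 each), and those of CDKN3 and TFDP1 when all probe sets of a gene were averaged (0.0679 and 0.0844). The CDKN3 call was also lost with quantile normalization (0.0560) and median scaling (0.0543), and it held in 13 of 21 alternatives. The methods' t-test at an unadjusted p under 0.05 found 1 gene lower, CKS2, and 0 after Benjamini-Hochberg. Replicate numbers name technical duplicates and did not pair the samples (correlations of their deviations −0.00608 to 0.126). With the arrays as separate samples, which counts duplicates of 1 RNA as replicates, 6 genes were called higher and 3 lower with a replicate block, when 24.2% of all genes were higher and 23.3% lower, and 10 and 3 without it, when 25.8% and 24.8% were. Leaving out each array in turn gave 0 to 1 gene called higher (PRC1 without BOKU siCtrl replicate 1 or without BOKU siIGF2R replicate 2). Those fits called 499 and 469 of all genes higher and 456 and 398 lower, against 236 and 212 with all arrays. It gave 0 to 1 gene at least 2-fold lower in SKG-I (0 without SKG-I siIGF2R replicate 1). No called result changed sign. The sign changed under at least 1 alternative for 7 values of single genes, of at most 0.17 on the log2 scale. These were the BOKU difference of NUSAP1 (−0.07 with quantile normalization, −0.02 with median scaling), the SKG-I differences of BIRC5 (0.11 with probe sets without s or x suffix), CDK1 and UBE2C, and the limma changes of MAD2L1 (−0.02 with quantile normalization), KIF2C (−0.02 likewise) and RACGAP1. Limits are the 1 RNA sample per group and the weak signal of the 5 genes below 500.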
